A study of Mus musculus with 14 samples.

Results

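Genes of macrophages and of leukocytes in general were followed across mouse corneal stroma and the cells grown from it. The set holds 38 genes, of which 21 are macrophage and myeloid genes, 13 are pan-leukocyte genes that most white blood cells carry, and 4 belong to MHC class II antigen presentation. A gene was included when the platform annotation gave its symbol as the only symbol of a probe set, and where a gene had several such probe sets the one of highest mean signal stood for it. All 38 were measured, among 8251 genes on the array with such a probe set, and all 38 had a mean signal of 50 or more in at least 1 group, which was the filter on dim probe sets.

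The samples were CD-1 mouse tissue and cultures, measured as total RNA on 1 Affymetrix MG_U74Av2 array each. Stroma came from adults aged 7 to 8 weeks (3 arrays) and from pups at postnatal day 10, P10 (2 arrays). Stromal cells of adults were grown in DMEM with 1% platelet-poor horse serum (keratocyte culture, 3 arrays), with 10% fetal bovine serum (fibroblast culture, 3 arrays), or with 10% fetal bovine serum and 10 ng/ml TGF-beta1 (myofibroblast culture, 3 arrays). The labels name no sort for or against leukocytes and do not say whether arrays of a group came from separate animals or cultures, so p-values measure only the spread between these samples. Because the RNA is bulk, fewer cells of a type and less RNA per cell cannot be told apart in any result.

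The values are probe set signals, linear and in arbitrary units, with a lowest value of 1. In 19 control probe sets, whose transcripts were not added, the 95th percentile was 137.7, and signals below it are called within background here. The highest single control signal was 256.8, so signals between these levels are above background by this rule but still within the range of the controls. Keratocyte markers were present in tissue and culture, with 8 of 9 measured markers above background in adult stroma and 6 of 9 in myofibroblast culture. Their level did not hold in every culture. They summed to 18114 to 19000 per array in adult stroma, 8932 to 19718 in keratocyte, 8358 to 17285 in fibroblast and 7372 to 9733 in myofibroblast culture. Corneal epithelium markers, 18 measured, summed to 28372 to 34002 per adult stroma array and to 743 to 903 per keratocyte culture array, and 17 were lower in each culture than in adult stroma. The ratio of 3′ to 5′ Actb signal, a sign of RNA quality, was 1.44 or more on each tissue array and 1.196 or less on each culture array. The Gapdh ratio was 2.12 on adult replicate 1 and 0.756 to 1.04 on the other arrays. These shifts run with the contrast of tissue against culture, and their part in the results below was not tested, apart from a fit that held the Gapdh ratio as a covariate.

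Resident macrophages live among the keratocytes of the corneal stroma and take up debris, microbes and dying cells. They depend on the growth factor receptor Csf1r and the transcription factor Spi1 (PU.1). They sense their surroundings through scavenger, Fc and other receptors, and digest what they engulf with lysosomal enzymes. Signals of some activating receptors pass through the adaptors Tyrobp and Fcer1g. They also secrete C1q, the recognition molecule of classical complement, and can present peptides on MHC class II.

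The macrophage genes were brightest in keratocyte culture. Of the 38 genes, 19 had their highest group mean there, and these were 14 macrophage and 5 pan-leukocyte genes and no MHC class II gene. The signals of the 21 macrophage genes summed to 1819 to 2519 on adult stroma arrays, 2537 to 2575 at P10, 5126 to 6390 in keratocyte culture, 2358 to 4882 in fibroblast culture and 2112 to 3373 in myofibroblast culture. The keratocyte culture arrays thus lay above every other array, and the range of the fibroblast culture arrays overlapped those of the tissue and of myofibroblast culture. The 13 pan-leukocyte genes summed to 2550 to 2816 in adult stroma and 2740 to 3392 in keratocyte culture, which overlap. Many members were dim: 10 had every group mean within background and 13 had every group mean above it.

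**Figure D1:**
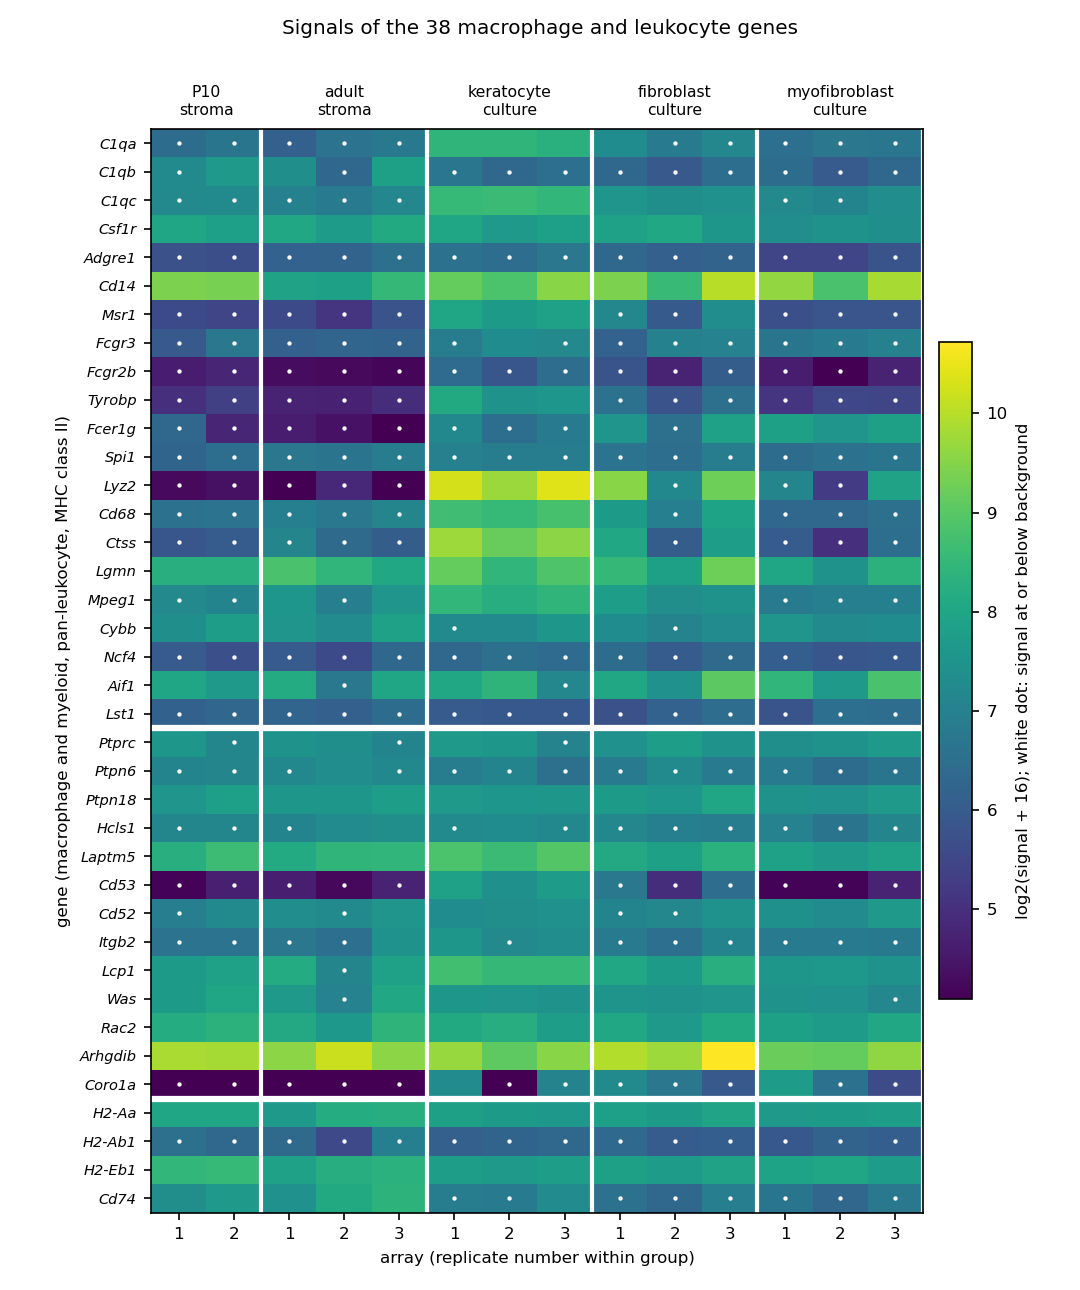
Heatmap of the 38 genes (rows, by group of genes) on the 14 arrays (columns, by group of samples), with colour giving log2(signal + 16). White dots mark signals at or below background. Colours are not centred by gene, so a gene that is bright in every group is bright across its row. Of the macrophage genes 14 of 21 have their highest group mean in keratocyte culture.

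Keratocyte culture against adult stroma gave the most calls among these genes. Of the 38 genes 15 were higher and 1 was lower at an adjusted p below 0.05, which is 42.1% of the members, while 31.1% of all 10370 probe sets tested were called in this comparison (21.8% higher and 9.25% lower). The higher genes were 12 of 21 macrophage and 3 of 13 pan-leukocyte genes, and the lower one was the MHC class II gene Cd74. The median log2 difference was 1.03 over the macrophage genes, 0.02 over the pan-leukocyte genes and -0.34 over the MHC class II genes, beside 0.12 over all probe sets tested. Centring each array on its median moved that last median to -0.06, the macrophage median to 0.84 and the pan-leukocyte median to -0.17, and made the split 15 higher and 5 lower.

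Of the 3 chains that assemble into C1q, C1qa had signals of 326, 328 and 298 on the keratocyte culture arrays and 53.4, 81.5 and 93.6 on the adult stroma arrays. All 3 culture arrays were above background and all 3 adult arrays within it, so the difference is given as a bound, the geometric mean of the brighter group over 137.7: at least 2.30-fold higher in keratocyte culture (adjusted p = 3.08e-06). C1qc, the chain encoded beside it, gave 351, 373 and 340.5 against 111, 98.8 and 126, at least 2.57-fold higher (adjusted p = 1.29e-06). The third chain, C1qb, has a pair of probe sets that disagree and is described with the other such genes further on.

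Among receptors, the scavenger receptor Msr1, which binds modified lipoproteins and microbial surfaces, had signals of 243, 192 and 218 in keratocyte culture and 31.3, 17.7 and 39.4 in adult stroma. The culture arrays stood clear of the tissue, at least 1.57-fold higher (adjusted p = 2.27e-05). Cd14, the coreceptor for bacterial lipopolysaccharide, was above background everywhere, at 554, 442 and 730.0 in keratocyte culture against 226, 217 and 348 in adult stroma. Its log2 difference was 1.08 (SE 0.34, adjusted p = 0.0254), and it no longer passed without adult replicate 1 (adjusted p = 0.0816) or 2 (0.0765), without keratocyte culture replicate 1 (0.0609) or 3 (0.112), or with the Gapdh ratio as a covariate (0.125). The Fc receptors, which bind antibody-coated particles, were higher by the test but dim: Fcgr3, an activating receptor, read 102 to 143 against 53.3 to 60.1 (adjusted p = 0.0105; 0.0787 with the Gapdh ratio), and Fcgr2b, the inhibitory one, 42.4 to 71.2 against 2.58 to 3.72 (adjusted p = 0.00038). Both group means of each lie within background, so no size is given. Fcgr2b passed the filter through its keratocyte culture mean of 60.9 alone, so it could hardly have been called lower there.

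Csf1r, the receptor whose ligands keep macrophages alive, did not follow this pattern. Its signals were 239, 187 and 210.0 in keratocyte culture and 252, 196 and 261 in adult stroma, which overlap, and all 14 arrays were above background. Only adult replicate 3 exceeded the highest control signal of 256.8. The other Csf1r probe set read 15.6 to 57.7 and was too dim to be tested. Whether the chosen probe set tracks the gene at these levels was not tested. Adgre1 (F4/80), a surface marker of mouse macrophages, read 71.8 to 89.3 in keratocyte culture and 56.6 to 76.1 in adult stroma, within background and not called. The transcription factor Spi1 was also within background on all arrays, at 102 to 109.5 against 83.0 to 104, and not called.

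The adaptors that carry receptor signals inward were dark in tissue. Tyrobp (DAP12), which pairs with activating receptors such as Trem2, read 9.94 to 14.8 in adult stroma and 163 to 260.5 in keratocyte culture, at least 1.41-fold higher (adjusted p = 6.01e-07). Fcer1g, the common chain of Fc receptors, read 7.96, 5.2 and 1 in adult stroma and 129, 73.4 and 98.8 in keratocyte culture (adjusted p = 0.000163). In the serum-grown cultures Fcer1g was at 171, 76.8 and 222 (fibroblast) and 217, 169.5 and 217 (myofibroblast), the latter above every keratocyte culture array, while Tyrobp read 39.1 to 79.3 and 17.9 to 29.3 there, below every keratocyte culture array.

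Enzymes and structural proteins of the lysosome and phagosome gave the largest bounds. Lyz2, the lysozyme that macrophages and granulocytes secrete, was at 1, 12.6 and 1 in adult stroma and at 1227, 833 and 1329 in keratocyte culture, at least 8.04-fold higher (adjusted p = 5.80e-06). Ctss, a protease that trims the invariant chain of MHC class II, was at 121, 67.1 and 49.6 in adult stroma and 837, 564 and 742 in keratocyte culture, at least 5.12-fold higher (adjusted p = 0.000201). Cd68, a lysosomal glycoprotein used as a macrophage stain, was at 107, 91.5 and 121 and 393, 351 and 423, at least 2.82-fold higher (adjusted p = 2.55e-05). For each of these genes the lowest keratocyte culture array was above the highest adult array. The pore-forming Mpeg1 was at 174, 106 and 172 in adult stroma and 341, 281 and 331 in keratocyte culture, a log2 difference of 1.03 (SE 0.19, adjusted p = 0.000745). A second probe set of Mpeg1 was called lower in this same comparison and is described further on. Lgmn, an asparaginyl endopeptidase of the lysosome, was at 333 to 549 against 246 to 433 and was not called.

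The oxidase genes and remaining myeloid genes did not pass. Cybb, the catalytic subunit of the phagocyte NADPH oxidase, read 137 to 178 in keratocyte culture and 141 to 222 in adult stroma, and its cytosolic partner Ncf4 stayed within background on all arrays. Aif1 (Iba1), a calcium-binding protein of macrophages and microglia, varied widely, at 245, 321 and 127 in keratocyte culture and 273, 91.2 and 236 in adult stroma. Lst1, a small leukocyte membrane protein encoded next to it, stayed within background on all arrays.

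**Figure D2:**
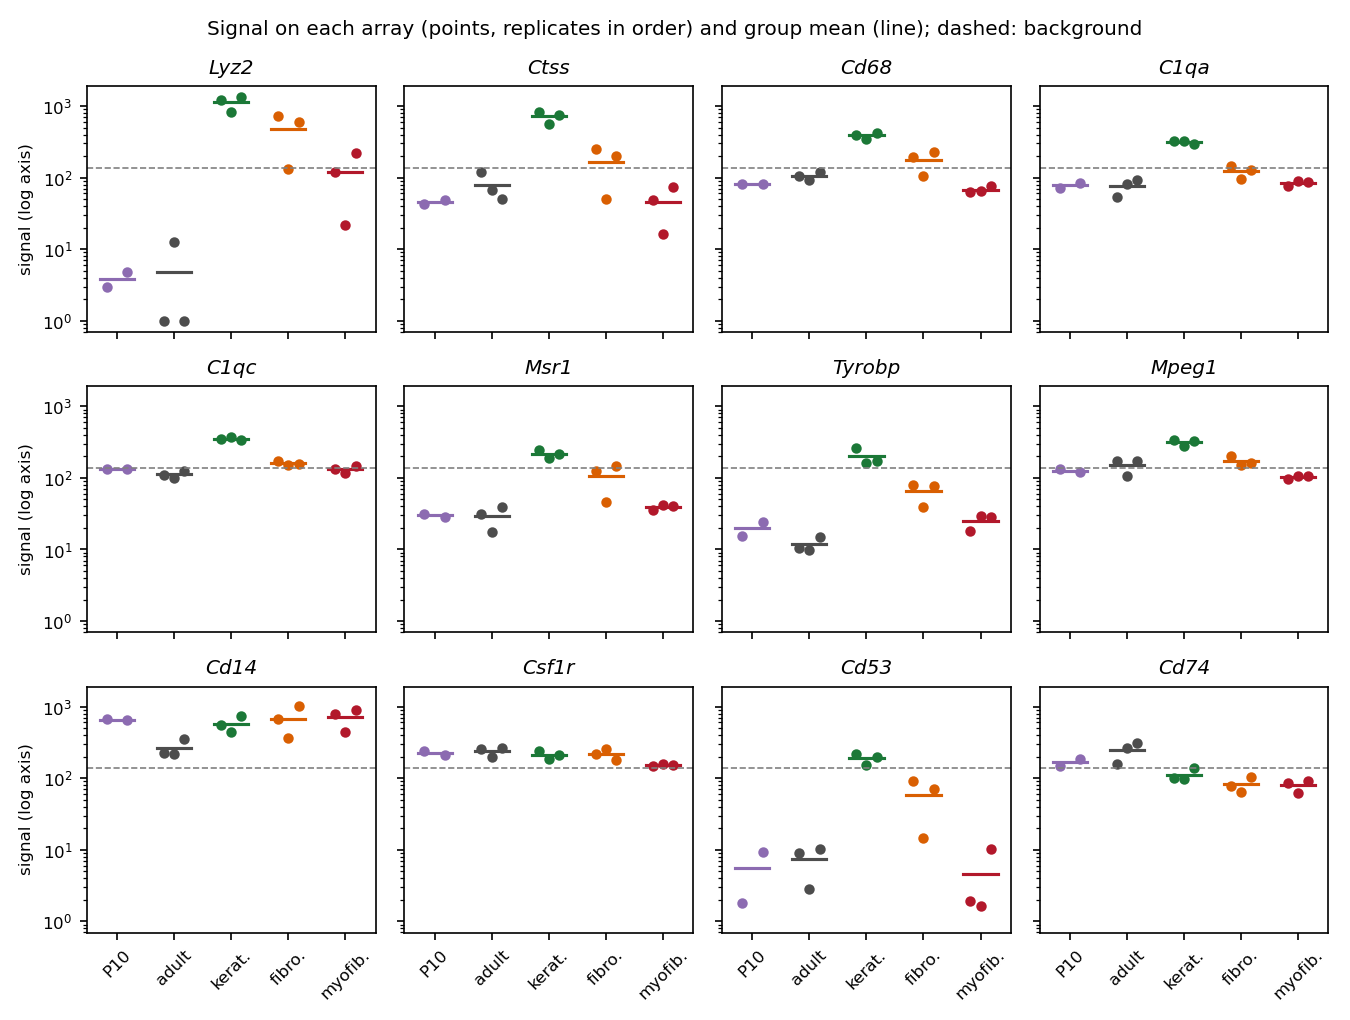
Signal on each array (log axis, arbitrary units) for named genes in the 5 groups, 1 point per array, with the dashed line at the background level of 137.7. Lyz2 spans 1 to 12.6 in adult stroma and 833 to 1329 in keratocyte culture, while Csf1r overlaps between those groups.

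Promoters of some members are printed as a description, since PU.1, the factor encoded by Spi1, is known to act on many myeloid promoters. Each runs from 250 bases before to 50 after the transcription start, from RefSeq on GRCm38.p6, written 5′ to 3′ on the gene's strand. Capitals mark the letters GAGGAA, a core of PU.1 sites, or TTCCTC, the same core on the other strand. The windows are Ctss at chr3:95526536-95526835 (plus strand), Cd53 at chr3:106790100-106790399 (minus), C1qc at chr4:136892865-136893164 (minus), Cd68 at chr11:69666121-69666420 (minus), Lyz2 at chr10:117282223-117282522 (minus) and Mpeg1 at chr19:12460520-12460819 (plus).
Ctss: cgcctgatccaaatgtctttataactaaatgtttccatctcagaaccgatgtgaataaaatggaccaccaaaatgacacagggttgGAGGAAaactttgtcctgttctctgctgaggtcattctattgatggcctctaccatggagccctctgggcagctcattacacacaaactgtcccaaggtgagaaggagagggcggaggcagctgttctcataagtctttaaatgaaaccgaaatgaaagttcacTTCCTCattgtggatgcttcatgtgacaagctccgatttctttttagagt
Cd53: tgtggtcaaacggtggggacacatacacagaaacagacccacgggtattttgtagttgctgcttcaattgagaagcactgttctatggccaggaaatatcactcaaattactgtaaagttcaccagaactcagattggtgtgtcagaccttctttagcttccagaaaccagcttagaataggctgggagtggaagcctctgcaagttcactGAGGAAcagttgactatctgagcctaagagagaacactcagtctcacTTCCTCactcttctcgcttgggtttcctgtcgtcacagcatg
C1qc: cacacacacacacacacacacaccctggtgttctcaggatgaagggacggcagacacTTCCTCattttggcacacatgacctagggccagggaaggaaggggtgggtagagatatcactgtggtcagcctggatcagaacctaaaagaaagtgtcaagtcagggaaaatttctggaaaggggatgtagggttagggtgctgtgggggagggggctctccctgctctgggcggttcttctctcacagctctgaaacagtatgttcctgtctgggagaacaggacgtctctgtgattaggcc
Cd68: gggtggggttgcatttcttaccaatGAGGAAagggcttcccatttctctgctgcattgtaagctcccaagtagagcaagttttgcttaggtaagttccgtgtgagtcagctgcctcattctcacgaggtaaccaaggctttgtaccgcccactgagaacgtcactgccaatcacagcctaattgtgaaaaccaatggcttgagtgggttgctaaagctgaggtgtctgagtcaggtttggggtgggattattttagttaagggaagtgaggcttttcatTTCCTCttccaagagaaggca
Lyz2: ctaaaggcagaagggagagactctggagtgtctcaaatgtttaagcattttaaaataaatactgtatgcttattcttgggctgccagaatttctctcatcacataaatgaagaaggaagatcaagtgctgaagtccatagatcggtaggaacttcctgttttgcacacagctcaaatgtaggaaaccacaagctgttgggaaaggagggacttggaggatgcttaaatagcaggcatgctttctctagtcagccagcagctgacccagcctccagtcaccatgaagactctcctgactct
Mpeg1: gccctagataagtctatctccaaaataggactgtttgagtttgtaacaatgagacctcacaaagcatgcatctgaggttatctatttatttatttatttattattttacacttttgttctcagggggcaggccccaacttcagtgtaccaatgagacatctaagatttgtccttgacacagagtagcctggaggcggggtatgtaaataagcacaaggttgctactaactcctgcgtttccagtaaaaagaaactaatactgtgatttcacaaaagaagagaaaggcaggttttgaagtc
The core was present 2 times in the windows of Ctss, Cd53 and Cd68, 1 time in that of C1qc and 0 times in those of Lyz2 and Mpeg1. RefSeq promoters were matched by symbol for 24 of the 38 members, and 12 of these 24 (50%) held the core in at least 1 promoter, against 31.3% of 27025 genes. Of the 11 matched members that were higher in keratocyte culture than in adult stroma, 5 held it. A match of these letters is a description of the sequence and not a shown binding site. Other spellings of the site were not searched, so a count of 0 does not show that a window lacks a site. The genes printed were picked by hand, and any part of PU.1 in the differences was not tested.

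Most pan-leukocyte genes were not called between keratocyte culture and adult stroma. Cd53, a tetraspanin of leukocyte membranes, was higher, with signals of 9.02, 2.8 and 10.2 in adult stroma and 220.3, 153 and 197 in keratocyte culture, at least 1.37-fold higher (adjusted p = 2.17e-05). Lcp1 (L-plastin), which bundles actin in leukocytes, was at 269, 123 and 220.3 and 403, 344 and 345, a log2 difference of 0.85 (SE 0.23, adjusted p = 0.0121; 0.0509 without keratocyte culture replicate 1). The actin regulator Coro1a was at the lowest value of 1 on all 5 tissue arrays and at 140.4, 1 and 117 in keratocyte culture. It was called higher (adjusted p = 0.0358), with a single culture array above background and 1 at the lowest value. The call was lost under 8 alternatives, among them leaving out keratocyte culture replicate 1 (adjusted p = 0.166) or 3 (0.156) and any of adult replicates 1 to 3 (0.0804, 0.0714 and 0.0793).

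The other 10 pan-leukocyte genes did not pass in this comparison. Laptm5, a lysosomal membrane protein of blood cells, was at 438, 376 and 475 in keratocyte culture and 266, 329 and 332 in adult stroma, which do not overlap (adjusted p = 0.0638). Ptprc (CD45), the phosphatase on the surface of nearly all leukocytes, was at 117 to 187 against 119 to 165. The integrin chain Itgb2 was at 131 to 179 against 74.9 to 159.8, and Rac2, a GTPase that activates the oxidase, at 209 to 284 against 183 to 324. Arhgdib was above background on all arrays, at 518 to 816 against 738 to 1154. Hcls1, Was, Cd52 and Ptpn18, which serve cortical actin, actin nucleation, the lymphocyte surface and tyrosine dephosphorylation, were not called in any comparison of the unpaired fit, and neither were Ptprc, Itgb2, Rac2 or Arhgdib.

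No MHC class II gene was higher in a culture than in adult stroma. Cd74, the invariant chain that guides class II molecules to the endosome, was at 158, 261 and 314 in adult stroma and 148 and 188 at P10, against 101, 97.1 and 139 in keratocyte culture, 78.5, 63.5 and 105 in fibroblast culture and 85.3, 61.4 and 91.4 in myofibroblast culture. Its adult arrays were above every culture array, at least 1.70-fold higher than keratocyte (adjusted p = 0.00672), fibroblast (0.000592) and myofibroblast culture (0.00045). With array quality weights the first of these did not pass (adjusted p = 0.0611). The alpha chain H2-Aa was at 184, 278 and 284 in adult stroma, 217, 191 and 182 in keratocyte, 211, 190.5 and 234 in fibroblast and 186, 190.2 and 203 in myofibroblast culture, with overlap between tissue and cultures. The beta chain H2-Eb1 was at 218, 280.1 and 305 in adult stroma, 208, 185 and 203 in keratocyte, 217, 195 and 224 in fibroblast and 228, 236 and 197 in myofibroblast culture. All adult H2-Eb1 arrays were above every keratocyte culture array. Neither H2-Aa nor H2-Eb1 was called in the main fit. H2-Ab1, the beta chain that pairs with H2-Aa, had all group means within background and was not called either. After centring each array on its median, H2-Aa (adjusted p = 0.0435) and H2-Eb1 (0.011) were lower in keratocyte culture than in adult stroma.

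The macrophage genes in fibroblast culture stood closer to adult stroma, with wide spread between arrays. Among the 38 genes 11 were higher and 2 lower, 34.2% against 30.8% of all probe sets (18.4% higher, 12.3% lower), and the median log2 difference of the macrophage genes was 0.54 beside 0.04 over all. Lyz2 was at 722, 130.1 and 599.5, at least 2.78-fold above adult stroma (adjusted p = 8.99e-05), and Msr1 at 126, 46.7 and 144 (adjusted p = 0.00291). Fibroblast culture replicate 2 was the lowest of its group for both genes, as it was for 30 of the 38 members, beside 51.6% of all probe sets tested. Tyrobp read 39.1 to 79.3 (adjusted p = 0.00033), Cd53 was at 90.6, 14.8 and 71.1 (adjusted p = 0.00788) and Cd14 at 662, 366 and 1007 (log2 difference 1.23, SE 0.34, adjusted p = 0.0131). The Cd14 call was lost without adult replicate 1 (0.0514) or fibroblast culture replicate 3 (0.0638). C1qc was at 172, 151 and 158, at least 1.16-fold higher (adjusted p = 0.0221), and not called without adult replicate 1 (0.0544) or 2 (0.0556) or fibroblast culture replicate 1 (0.0774). The count fell to 8 without adult replicate 1 and to 6 with the Gapdh covariate, while Msr1, Tyrobp, Fcer1g, Lyz2, Cd53 and Cd74 were called under every alternative that tested them.

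Between myofibroblast culture and adult stroma members were called in both directions, in all at a share below that of all probe sets. Among the 38 genes 4 were higher and 6 lower, 26.3% against 33% of all probe sets (17.5% higher, 15.5% lower), and the macrophage genes had a median log2 difference of -0.01, the same as over all probe sets. The 4 higher genes were Fcer1g, at least 1.45-fold above adult stroma (adjusted p = 7.26e-06), Cd14 at 777, 437 and 909 (log2 difference 1.34, SE 0.34, adjusted p = 0.00746), Lyz2 at 121, 21.6 and 222 (adjusted p = 0.00788) and Coro1a at 196, 79.9 and 32.8 (adjusted p = 0.0112; 0.0598 without myofibroblast culture replicate 1). Csf1r was lower, at 146, 159.8 and 153, a log2 difference of -0.57 (SE 0.17, adjusted p = 0.0181), which was lost without adult replicate 1 (0.0629) or 3 (0.0534) or myofibroblast culture replicate 1 (0.0591). Adgre1 was lower within background, 28.7 to 40.5 against 56.6 to 76.1 (adjusted p = 0.0059). Laptm5 was at 222, 186 and 219, a log2 difference of -0.53 (SE 0.18, adjusted p = 0.0331), while its other probe set read 175 to 214 against 89.8 to 207 in adult stroma and did not pass (log2 difference 0.38, adjusted p = 0.219). Ptpn6 (SHP-1), a phosphatase that dampens leukocyte receptor signals, was lower, at 99.4, 70.0 and 85.7 against 129.5, 146 and 130.2 (adjusted p = 0.0223). The Laptm5 call was lost without adult replicate 2 (0.0738) or 3 (0.0825) or any of myofibroblast culture replicates 1 to 3 (0.0554, 0.107 and 0.0604), and that of Ptpn6 without adult replicate 2 (0.0538) or myofibroblast culture replicate 2 (0.088) or 3 (0.0524). With the Gapdh ratio as a covariate 4 of the 38 were called in all, and the calls of Fcer1g and Cd74 alone passed under every alternative that tested them.

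**Figure D3:**
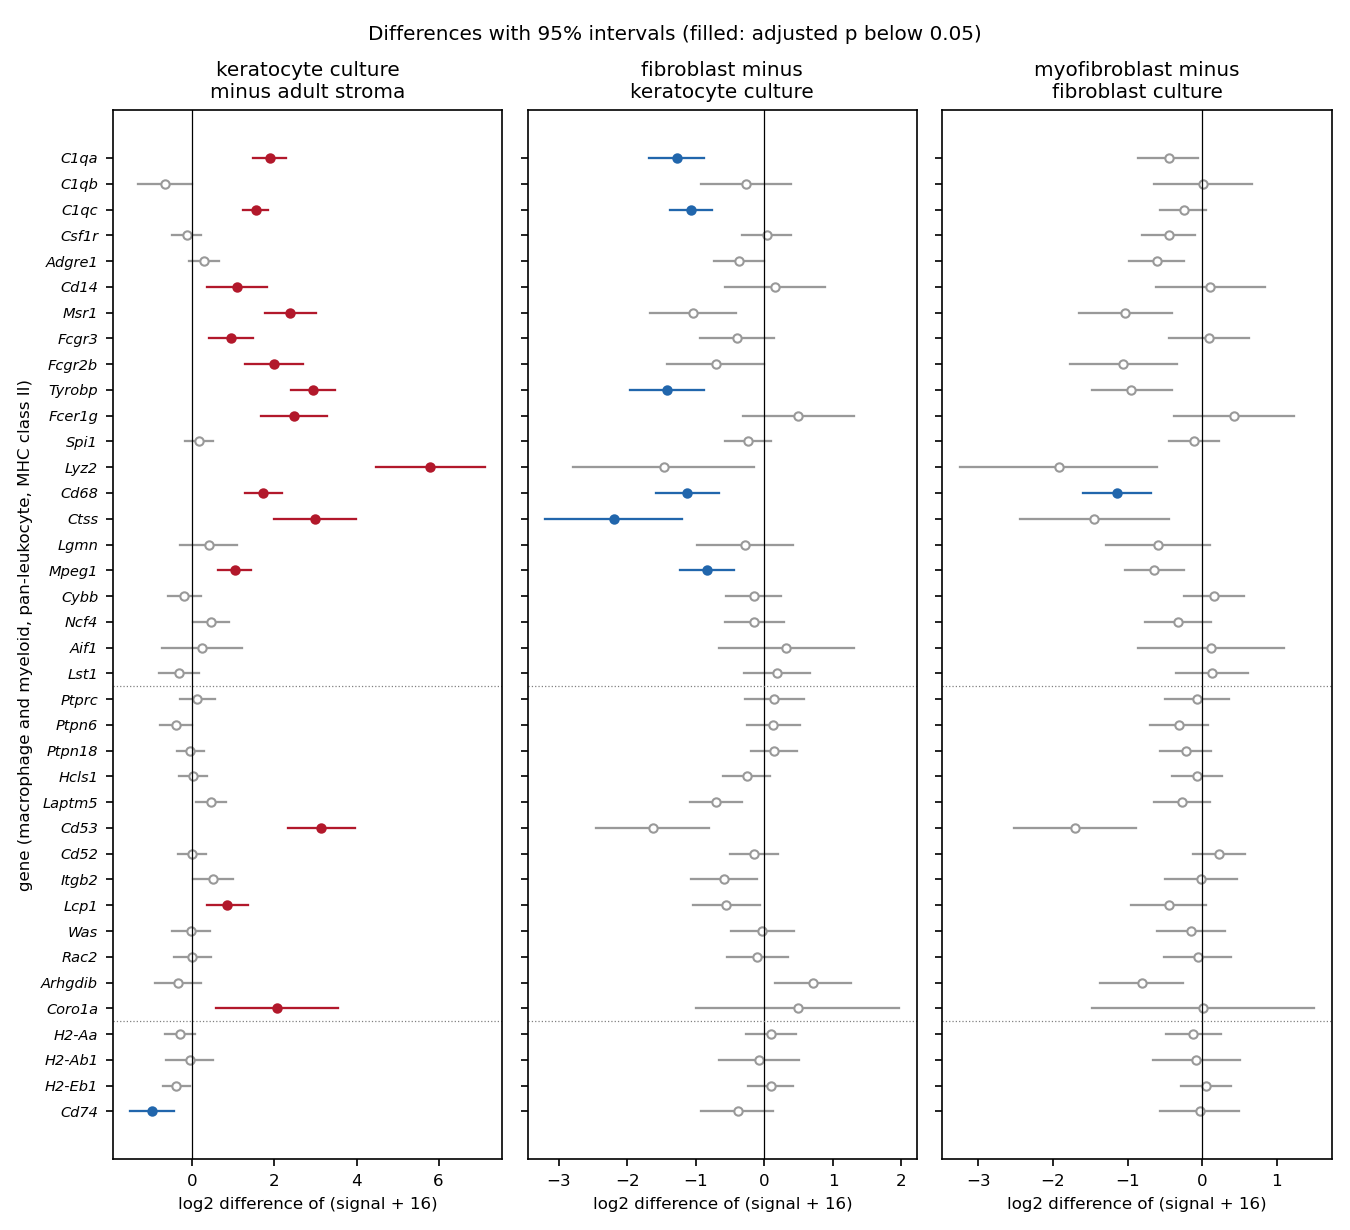
Differences of log2(signal + 16) of the 38 genes in 3 comparisons, each point a gene with its 95% interval from the fit, filled where the adjusted p was below 0.05 (red higher, blue lower); the size for a gene within background in a group depends on the added 16. Of the macrophage genes 12 are filled red in keratocyte culture against adult stroma, 6 blue in fibroblast against keratocyte culture and 1, Cd68, blue in myofibroblast against fibroblast culture.

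Fibroblast culture against keratocyte culture compares the serum-grown cells with those in low serum without the tissue arrays. Here 6 of the 38 genes were lower and 0 higher, which is 15.8% of the members beside 1.37% of all probe sets tested (0.193% higher, 1.18% lower). All 6 were macrophage genes, and every keratocyte culture array was above every fibroblast culture array in 14 of the 38 genes, beside 10.7% of all probe sets tested. C1qc fell from 355 ± 16.5 (SD, n = 3) to 160.2 ± 10.9 (SD, n = 3), a log2 difference of -1.07 (SE 0.14, adjusted p = 0.00195), and C1qa from 317 ± 16.4 (SD, n = 3) to 122 ± 24.4 (SD, n = 3), at least 2.30-fold lower (adjusted p = 0.00422). Both chains passed under every alternative run.

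The 4 other genes lower in fibroblast than in keratocyte culture depended on single arrays. Cd68 fell from 389 ± 36.2 (SD, n = 3) to 176 ± 61.9 (SD, n = 3) (log2 difference -1.13, SE 0.21, adjusted p = 0.0192), and Ctss from 714 ± 138 (SD, n = 3) to 167 ± 104 (SD, n = 3) (log2 difference -2.20, SE 0.47, adjusted p = 0.0325). Mpeg1 had a log2 difference of -0.84 (SE 0.19, adjusted p = 0.0406), and Tyrobp was at least 1.41-fold lower (adjusted p = 0.0128). The other probe set of Mpeg1 was not called in this comparison. Without keratocyte culture replicate 1, and likewise without replicate 3, 2 members were called, and a fit of only these 2 groups also called 2. Ctss was also lost without keratocyte culture replicate 2, fibroblast culture replicate 2 or 3 or either P10 array, and Mpeg1 without any of these or any myofibroblast culture array, with adjusted p up to 0.0667 for Ctss and 0.145 for Mpeg1. Lyz2 at 1129.9 ± 262 (SD, n = 3) and 484 ± 312 (SD, n = 3) (adjusted p = 0.492), Msr1 (0.123) and Cd53 (0.0553) did not pass.

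Myofibroblast culture against fibroblast culture asks what differed with TGF-beta1. Here 1 of the 38 genes was lower and 0 higher, 2.63% beside 1.07% of all probe sets (0.289% higher, 0.781% lower). Cd68 was at 62.3, 64.8 and 76.6 in myofibroblast and 194, 107 and 227 in fibroblast culture, at least 1.22-fold lower (adjusted p = 0.0181), and it was not called without fibroblast culture replicate 1 (0.0873) or 3 (0.0727) or myofibroblast culture replicate 1 (0.0766) or 2 (0.0664). Arrays of these groups with the same replicate number deviated together, so the fit was repeated with the replicate block on these 2 groups alone. With the block 4 members (10.5%, beside 2.03% of all probe sets) were lower, Lyz2 (lower in 3 of 3 pairs, adjusted p = 0.0183), Ctss (0.0386), Arhgdib (0.0424) and Fcgr2b (0.0455), and Cd68 narrowly missed (0.0527). Arhgdib was at 573, 554 and 767 in myofibroblast and 971, 844 and 1667 in fibroblast culture. Without fibroblast culture replicate 2 the unpaired fit called 7 members lower (18.4%, beside 1.46% of all probe sets), Msr1 (adjusted p = 0.00326), Cd53 (0.000855), Ctss (0.0131), Tyrobp (0.0232), Fcgr2b (0.024), Lyz2 (0.0257) and Cd68.

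No member differed by the test between adult and P10 stroma. None of the 38 was called with limma, beside 3.71% of all probe sets (0.453% higher, 3.26% lower), 4 (10.5%) had an unadjusted p below 0.05 beside 14.9% of all probe sets, and the lowest adjusted p was 0.0818. That gene was Cd14, at 661 and 643 at P10 and 226, 217 and 348 in adults, groups that do not overlap. Some alternatives called Cd14 lower in adults. These were the replicate block over all arrays (adjusted p = 0.00115), array quality weights (0.000605) and leaving out fibroblast culture replicate 2 (0.0348) or 3 (0.0467). H2-Eb1 read 339 and 352 at P10, above all 3 adult arrays, and was not called. Medians of the log2 differences were -0.03, -0.02 and -0.05 in the macrophage, pan-leukocyte and MHC class II genes and -0.12 over all probe sets.

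Of the 38 genes 11 had more than 1 probe set, 50 in all, and in C1qb, Mpeg1, Laptm5 and Lcp1, where more than 1 was tested, the probe sets were called differently. These 4 are described here with Fcer1g and Ptprc, which were chosen after their values were seen. For C1qb the chosen probe set was lower in fibroblast (adjusted p = 0.0324) and myofibroblast culture (0.032) than in adult stroma, with 150.3, 62.9 and 215 in adult stroma and 87.6, 64.8 and 75.1 in keratocyte culture. Its other probe set was higher in keratocyte culture than in adult stroma, 106, 63.2 and 107 against 2.93, 1 and 10.9 (adjusted p = 0.000327), within background on all arrays. The falls of the chosen set were not called without adult replicate 1 (adjusted p = 0.108 and 0.105) or 3 (0.144 and 0.142). They were also lost in fibroblast culture without its replicate 1 (0.0639) or 2 (0.101), and in myofibroblast culture without its replicate 2 (0.0997) or 3 (0.0635). For Mpeg1 the other probe set fell in all 3 cultures, from 112, 57.0 and 120.4 in adult stroma to 37.2, 30.2 and 33.0 in keratocyte culture, opposite to the chosen one, and it was the only gene whose probe sets were called in opposite directions in the same comparison. Fcer1g's other probe set read 6.03 to 12.3 in keratocyte culture and 11.3 to 18.1 in adult stroma and was too dim to be tested. For Ptprc, a second probe set read 13.9 to 27.6 in keratocyte culture and at most 17.5 elsewhere, all within background, while the chosen one was not called in any comparison. Laptm5's other probe set was higher in keratocyte culture than in adult stroma, 315, 274 and 277 against 147, 89.8 and 207 (log2 difference 0.96, SE 0.23, adjusted p = 0.00507), where the chosen one did not pass. Lcp1's other probe set, within background on all arrays, was higher than in adult stroma in all 3 cultures, 8.72 to 13.1 in adult stroma against 49.8 to 61.2, 45.6 to 64.6 and 37.3 to 44.0 in keratocyte, fibroblast and myofibroblast culture (adjusted p = 3.34e-05, 4.7e-05 and 0.000416), while the chosen one passed in keratocyte culture alone. Endings such as _i_at, _r_at, _f_at or _g_at mark probe sets that Affymetrix chose under relaxed rules or that share probes with other transcripts. Among these 6 genes they mark the chosen sets of C1qb, Fcer1g and Ptprc and the other sets of Mpeg1 and Laptm5.

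**Figure D4:**
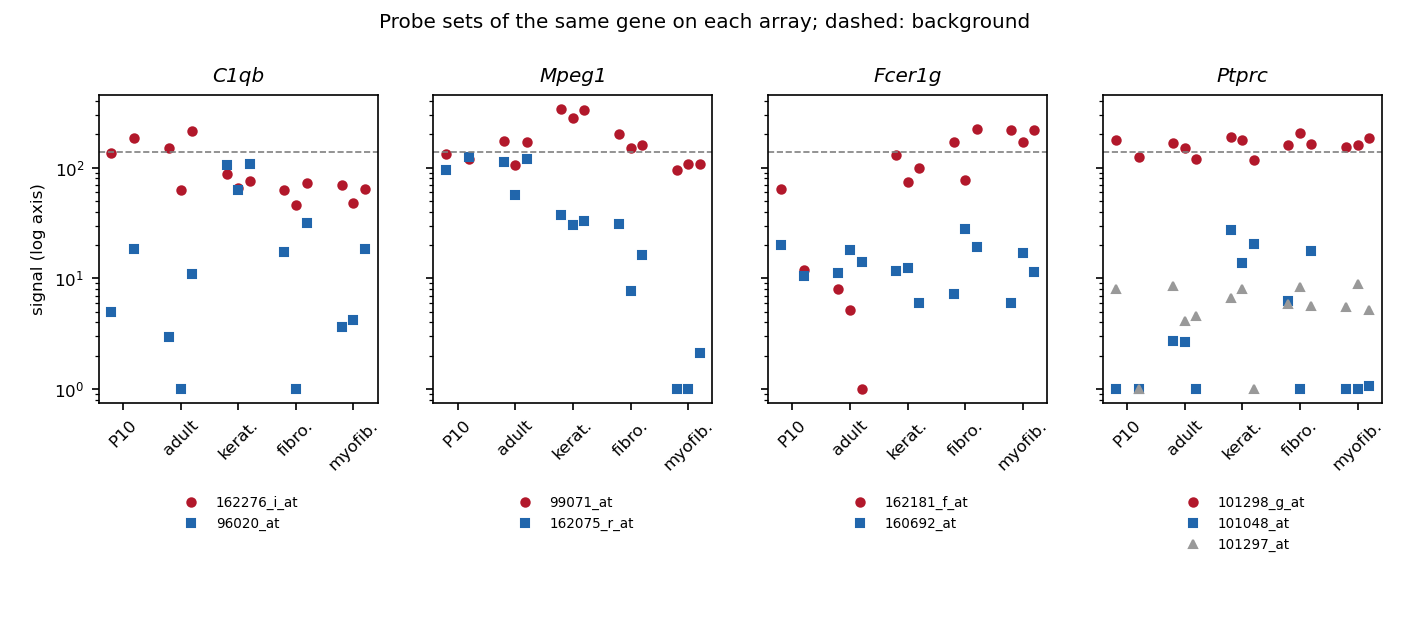
Signals (log axis) of the probe sets of C1qb, Mpeg1, Fcer1g and Ptprc on each of the 14 arrays, 1 colour per probe set, with the dashed line at background. In Mpeg1 the red points are highest in keratocyte culture, at 281 to 341, while the blue points fall from 57.0 to 120.4 in adult stroma to 30.2 to 37.2 there.

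Other macrophage and monocyte genes were a list of 39, of which 24 were measured and 18 passed the filter. In keratocyte culture against adult stroma 10 were higher and 0 lower, with a median log2 difference of 0.93. The shares over all probe sets tested were 21.8% higher and 9.25% lower there. The filter asked for a mean of 50 in any 1 group. A gene could thus enter through keratocyte culture alone and then could hardly be called lower, so the counts and the median may lean towards higher. The same holds for the other lists below. Clec4d, a lectin receptor that signals through Fcer1g, averaged 187 in keratocyte and 75.8 in fibroblast culture and was at the lowest value of 1 on all arrays of the other 3 groups (keratocyte against adult adjusted p = 1.18e-06). The chemokine Ccl9 averaged 11.3 in adult stroma, 645 in keratocyte, 201 in fibroblast and 32.3 in myofibroblast culture (adjusted p = 1.93e-07), and the mannose receptor Mrc1 3.46, 117, 32.2 and 7.52 (adjusted p = 1.86e-06). These 3 genes are those of lowest adjusted p in the list, so their levels are given as a description. In fibroblast culture against adult stroma 9 of the 18 tested were higher and 1 lower, beside 18.4% and 12.3% of all probe sets. Myofibroblast culture against adult stroma gave 3 and 0, a share higher near that of all probe sets (17.5% higher, 15.5% lower). Fibroblast against keratocyte culture gave 0 higher and 2 lower, beside 0.193% and 1.18%. Myofibroblast against fibroblast culture gave 0 and 5, beside 0.289% and 0.781%.

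Of 9 genes tested for ligands that recruit or sustain macrophages, 3 were higher than in adult stroma in keratocyte, 3 in fibroblast and 4 in myofibroblast culture, and 0 were lower. The shares of all probe sets higher in these comparisons were 21.8%, 18.4% and 17.5%. Csf1, the growth factor of Csf1r, averaged 353 in adult stroma and 494.5 at P10 against 1064, 1331 and 1304 in keratocyte, fibroblast and myofibroblast culture (adjusted p = 2.76e-05, 4.49e-06 and 4.79e-06 against adult stroma). The monocyte chemokine Ccl2 was at the lowest value of 1 on all tissue arrays and averaged 843, 613 and 97.2 in those cultures (adjusted p = 2.16e-08, 5.94e-08 and 3.92e-05), lower in myofibroblast than in fibroblast culture (adjusted p = 0.00268). Ccl7, another monocyte chemokine, averaged 1.93 at P10, 1 in adult stroma and 290, 196 and 31.4 in culture.

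Lists of related functions were counted in the same comparison, beside the 31.1% of all probe sets called (21.8% higher). Of 17 leukocyte kinases and ITAM signalling genes tested, 4 were higher and 1 lower in keratocyte culture than in adult stroma, a share near that of all probe sets. Prkcb, a protein kinase C of leukocyte receptor signalling, averaged 237 in adult stroma and 646 in keratocyte culture (adjusted p = 0.00312). Of 19 lysosomal genes tested, 14 were higher and 1 lower, with Cd63 going from 266 to 2716 (adjusted p = 5.61e-09) and the protease Ctsb from 1019 to 3279 (adjusted p = 3.24e-06). Cd63 averaged 2465 in fibroblast and 2337 in myofibroblast culture, with no difference called between neighbouring cultures (adjusted p = 0.89 and 0.99). Of 7 complement partners tested, 4 were higher and 1 lower, with Serping1, the C1 inhibitor, going from 279 to 2290 (adjusted p = 1.33e-06). Fibroblasts also make lysosomal and complement proteins, so these lists are not specific to leukocytes.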

How the data were processed

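Each array received 5 µg of total RNA, per the labels. The deposited values are linear intensity signals of probe sets, which per the submitters' processing notes came from MAS5 and per the labels were scaled to a target of 150; the treatment of values below the lowest one is not stated there. Array medians ran from 102 to 136, and whether that scaling holds for the table could not be settled. No deposited column was left unmapped. Of 12422 probe sets without controls, 10833 had 1 symbol, 396 several and 1193 none, and 10370 passed the filter.

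The fit (limma 3.58.1, R 4.3.3) took log2(signal + 16) of all 14 arrays with a mean for each group (9 residual degrees of freedom) and a variance trend, with two-sided p-values and Benjamini-Hochberg adjustment across all 10370 in each comparison. Fitted differences are on the log2(signal + 16) scale, which understates changes of dim genes; in the report, where a group mean lay within background, a bound stands in their place or no size is given. Arrays carry no counts, so their number limits the precision. In simulated data, 200 of 10370 probe sets were changed in 1 comparison at a time, with noise drawn independently for each array. Differences of 1 on the log2 scale were recovered there in 55% to 64% and of 2 in 91% to 97%. Far more probe sets were called between cultures and adult stroma (30.8% to 33%), and some arrays deviated together, so recovery in the data may differ.

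The fibroblast and myofibroblast replicate numbers come from the labels. Their same-numbered arrays deviated together from their group means (r = 0.623, 0.682 and 0.533 over probe sets). No other pair of groups had r over 0.1 for all 3 numbers. Replicate 2 of keratocyte culture nonetheless deviated with replicate 2 of fibroblast (r = 0.572) and of myofibroblast culture (0.409). For replicates 1 and 3 of keratocyte culture, r was 0.197 and 0.069 with fibroblast and 0.221 and 0.074 with myofibroblast culture. Values by array are given for called members, ordered by highest group mean: up to 10 macrophage, up to 6 pan-leukocyte and all MHC class II genes; other lists give up to 3 genes of lowest adjusted p, and Csf1 and Ccl2. There are 14 other lists, also of T and NK, B, dendritic, mast, red blood and endothelial cells and neutrophils. Members, lists and rules were chosen with earlier results of these data known. Alternatives were the added constant, filter, normalization, arrays in the fit, block, variance, probe set and leaving out each array.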

Additional observations from a re-analysis of the deposited data

How the results depend on the processing

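Over 29 alternatives, of which 27 were planned, 21 of the 46 calls of members passed under each alternative that tested them; the rule that most probe sets of a gene pass was applied to counts alone. The count for keratocyte culture against adult stroma (16) stayed within 1.5 times under each. Its excess over all probe sets did not hold under each. Array quality weights called 22 members (57.9%) beside 61.4% of all probe sets, against 42.1% beside 31.1% in the main fit. Leaving out each array in turn gave 0 to 1 calls for adult against P10 stroma, 13 to 17, 8 to 13 and 7 to 11 for keratocyte, fibroblast and myofibroblast culture against adult stroma, 2 to 7 for fibroblast against keratocyte culture and 0 to 7 for myofibroblast against fibroblast culture. For adult against P10 stroma (0 calls), quantile normalization and median centring gave 1, the replicate block over all arrays 2 and array quality weights 7 (18.4%, beside 22.5% of all probe sets). For fibroblast culture against adult stroma (13), a fit of only the 2 groups gave 8 and the Gapdh ratio as covariate 6. For myofibroblast culture against adult stroma (10), these gave 6 and 4, and array quality weights 17 (44.7%, beside 49.7% of all probe sets). For fibroblast against keratocyte culture (6), the fit of only the 2 groups gave 2. The replicate block over all arrays gave 9 there (23.7%, beside 2.06% of all probe sets). For myofibroblast against fibroblast culture (1), no filter, quantile normalization, median centring, no variance trend and the replicate block over all arrays each gave 2, array quality weights 3, only the 2 groups 0, and the replicate block on only the 2 groups, added after seeing the data, 4. Beyond this, the block over all arrays moved no count by over 1.5 times. Aif1 turned lower in keratocyte culture with array quality weights (log2 difference -0.69, adjusted p = 0.0466). With plain probe sets preferred, also added after seeing the data, the fitted difference of C1qb from adult stroma changed sign, since another probe set, within background on all arrays, stands for it: it passed in keratocyte culture (2.37, adjusted p = 0.000327) but not in fibroblast (0.55, 0.316) or myofibroblast culture (0.22, 0.704) and, with a group within background, the sizes cannot be read. Fewer arrays enter the fits of 2 groups; the cause of the other changes was not tested. Of the members, 10 have all group means within background, where neither a level nor a size can be read.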

Other observations

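Markers of other blood cells did not rise as a group in keratocyte culture against adult stroma. In that comparison 21.8% of all probe sets tested were higher and 9.25% lower. Of 12 T and NK cell genes tested, 0 were higher and 1 lower with limma. Of 8 B cell genes 0 were higher and 1 lower, the heavy chain Ighm, which averaged 317 in adult stroma and 191 in keratocyte culture (adjusted p = 0.023). Of 11 neutrophil genes 1 was higher and 2 lower, and the higher one was Lcn2, an iron-carrier protein that epithelia and other cells also make, at 59.5 in adult stroma, 905 in keratocyte, 109 in fibroblast and 37.8 in myofibroblast culture (adjusted p = 1.33e-06). Of 6 dendritic cell genes 1 was higher, Relb, at 109.6 and 174 (adjusted p = 0.0223). Of 9 mast cell genes 1 was higher and 1 lower, the receptor Kit, which averaged 444 in adult stroma and 119 in keratocyte culture (adjusted p = 8.80e-06).

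Single red blood cell and vessel genes differed between groups. The globin gene Hba-a1 averaged 1946 at P10, 797 in adult stroma and 166, 149 and 156 in keratocyte, fibroblast and myofibroblast culture, and it was lower in adult than in P10 stroma (adjusted p = 0.00492). Of 5 red blood cell genes tested, 1 was higher and 1 lower in keratocyte culture than in adult stroma, beside 21.8% and 9.25% of all probe sets. Of 9 endothelial genes 4 were higher and 0 lower there. Cdh5, the cadherin of endothelial junctions, averaged 4.13 in adult stroma, 317 in keratocyte, 47.7 in fibroblast and 5.25 in myofibroblast culture (adjusted p = 1.77e-05 for keratocyte culture against adult stroma).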
